A study of Mus musculus with 2 samples.

Results

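The microRNA genes Mir200a, Mir200b, Mir429, Mir200c, Mir141, Mir203 and Mir205 are best known from epithelia, and here their reads were followed in embryonic mouse forebrain. They were picked by gene name, and all 7 were found among the 1973 microRNA genes counted. The libraries came from forebrain of B6NCrl mouse embryos at embryonic day 13.5, healthy and of pooled sex, with no treatment or engineered allele named in the labels. Small RNA under 30 nucleotides was sequenced in 2 biological replicates of 1 group, whose labels carry 1 donor identifier and do not tie embryos to pools. There was no second condition, so levels are described and the libraries are compared only with each other. The spread between them may in part be technical. The tables held 4117752 own-strand gene counts in replicate 1 and 3908953 in replicate 2, so a gene with no read could have had up to 0.729 or 0.767 CPM. Of the 13 neural microRNA genes listed to check the tissue, 12 were measured and 10 were detected, led by Mir92b at 13430 ± 660 CPM (SD, n = 2). Genes of other cells were read too. The endothelial gene Mir126a stood higher, at 17435 ± 1970 CPM. Mir143 led the mesenchymal and mural list at 3525 ± 628 CPM, and Mir223 the blood list at 95.8 ± 9.16 CPM. The genes of miR-124, the characteristic neuronal microRNA, had at most 20 counts in a library, and the strand-specific tables keep multi-mapped reads apart from genes.

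A microRNA is cut from a hairpin precursor, loaded into an Argonaute protein and pairs with messenger RNAs mainly through its seed, bases 2 to 8 of the mature strand. The Mir200 family holds epithelial cells in their state by repressing the transcription factors Zeb1 and Zeb2, which in turn repress the family's genes. In the nervous system the family is known from olfactory and other sensory epithelia and from the differentiation of neural progenitors. Mir203 is known from the outer layers of the skin, where it limits the progenitor factor p63, and Mir205 from stratified and glandular epithelia. Reads of whole tissue do not show which cells carried these RNAs, and fewer cells of a type cannot be told apart from less RNA per cell.

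All 7 genes were matched in RefSeq (GRCm38.p6), and the mature strands are printed 5′ to 3′ with the seed in capitals, since the seed sorts the Mir200 family into its groups. The strand shown is the arm for which each microRNA is mainly known.
miR-200b-3p: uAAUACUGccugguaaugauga
miR-200c-3p: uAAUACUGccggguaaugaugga
miR-429-3p: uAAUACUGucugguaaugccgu
miR-200a-3p: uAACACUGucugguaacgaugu
miR-141-3p: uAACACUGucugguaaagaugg
miR-203-3p: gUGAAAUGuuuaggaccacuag
miR-205-5p: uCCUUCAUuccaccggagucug

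The upper 3 strands share the seed AAUACUG, and miR-200a-3p and miR-141-3p share AACACUG. Counting from 1 at the 5′ end, U4C separates the seed of miR-200b-3p from that of miR-200a-3p. Within a seed group the strands differ further on. From miR-200b-3p to miR-200c-3p the changes were U11G and A22G, with 1 more base at the 3′ end of miR-200c-3p. From miR-200a-3p to miR-141-3p they were C17A and U22G. No other gene in the RefSeq table of 1738 mature strands carried any of these 4 seeds on either arm. Of the 7 strands shown, 6 begin with U, while the other arms of the same genes begin with C, G or A. Among all RefSeq mature strands, with both arms counted, 41.3% begin with U. The strands shown were chosen by arm, and those of the Mir200 family start alike. The 6 of 7 is therefore not read as an excess over that share.

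The deposited counts are per gene and do not separate the arms of a hairpin. This matters for any sum by seed, because the other arms of Mir200a and Mir200b share a seed of their own, AUCUUAC.
miR-200a-5p: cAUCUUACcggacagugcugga
miR-200b-5p: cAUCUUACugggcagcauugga

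The longest stretch that a member's hairpin shared with any of 2200 other microRNA genes of GENCODE M21, in either orientation, was 17 bases, between Mir200a and Mir141. It was 14 bases between Mir200b and Mir200c and 11 for Mir203. A read covering a whole mature strand is longer than any of these stretches. The search scored identical runs only, and whether the aligner allowed mismatches is not known here. The strands miR-200a-3p and miR-141-3p differ at 2 of 22 bases. How many shorter reads went to the multi-mapped row was not tested, and the search did not cover the genome or the RefSeq gene opposite Mir203 described at the end, which GENCODE M21 lacks.

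In genome build GRCm38 the family lies in 2 clusters, each transcribed from the minus strand. On chromosome 4 (156053905 to 156055750) Mir200b comes first in the direction of transcription, Mir200a follows after 695 bases and Mir429 after a further 908. Mir200b and Mir200a lie in introns of the noncoding gene Gm13648, Mir429 lies within an exon of it, and all 3 lie in an intron of Ttll10. On chromosome 6 (124717914 to 124718390) Mir200c and Mir141 are 336 bases apart in an intron of the noncoding gene Gm15884, and Mir141 also overlaps part of an exon of Gm29008. Mir203 (chromosome 12, 112130880 to 112130955, plus strand) overlaps no other gene of GENCODE M21, the annotation used for names, and lies 3320 bases past the protein-coding gene Aspg. Mir205 (chromosome 1, 193507463 to 193507530, minus strand) lies within an exon of the long noncoding gene 4631405K08Rik.

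Mir203 accounted for most of the reads of this set. It had 5802 counts in replicate 1 and 5249 in replicate 2, or 1409 and 1343 CPM (counts relative to 1000000 own-strand gene counts of the library). That made 83.7% and 84.1% of all counts of the 7 genes. Its mean of 1376 ± 46.8 CPM (SD, n = 2) placed it at rank 81 of the 1973 genes. It was the only member above the median of the 377 detected genes, 137 CPM, where detected means at least 10 counts in each library. All 7 members were detected.

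Mir429, the most read gene of the Mir200 family, had 555 and 523 counts, or 135 and 134 CPM. These values differed by less than their exact 95% binomial intervals of 124 to 146 and 123 to 146 CPM, which cover counting error only. Mir203 stood 10.5-fold above it in replicate 1 and 10.04-fold in replicate 2. Mir205 came next with 271 counts in replicate 1 and 159 in replicate 2, or 65.8 and 40.7 CPM. Its replicates were the farthest apart of the 7 in relative terms, with an SD of 33.4% of the mean of 53.2 CPM.

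The remaining 4 genes of the family were lower. Mir200c had 132 and 141 counts (32.1 and 36.1 CPM) and Mir200b 118 and 105 (28.7 and 26.9 CPM). Mir200c was above Mir200b in each library, but the ratio of 1.12 in replicate 1 had an exact interval of 0.866 to 1.45, so their order was not resolved there. In replicate 2 it was 1.34 (1.04 to 1.75). Mir200a had 34 and 38 counts (8.26 and 9.72 CPM), and Mir141 had 22 and 26 (5.34 and 6.65 CPM). The ratio of Mir200a to Mir141 was 1.55 (0.878 to 2.77) and 1.46 (0.865 to 2.51), so these lowest members were not separated beyond counting error either.

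The order of means from Mir203 down to Mir141 was the same in both libraries and spanned 229-fold. Mir205 over Mir200c was a further step that 1 library did not resolve, at 2.05 (1.66 to 2.55) in replicate 1 and 1.13 (0.893 to 1.42) in replicate 2. Reads compare genes only as far as the library preparation captures different microRNAs evenly, which was not measured here.

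**Figure D1:**
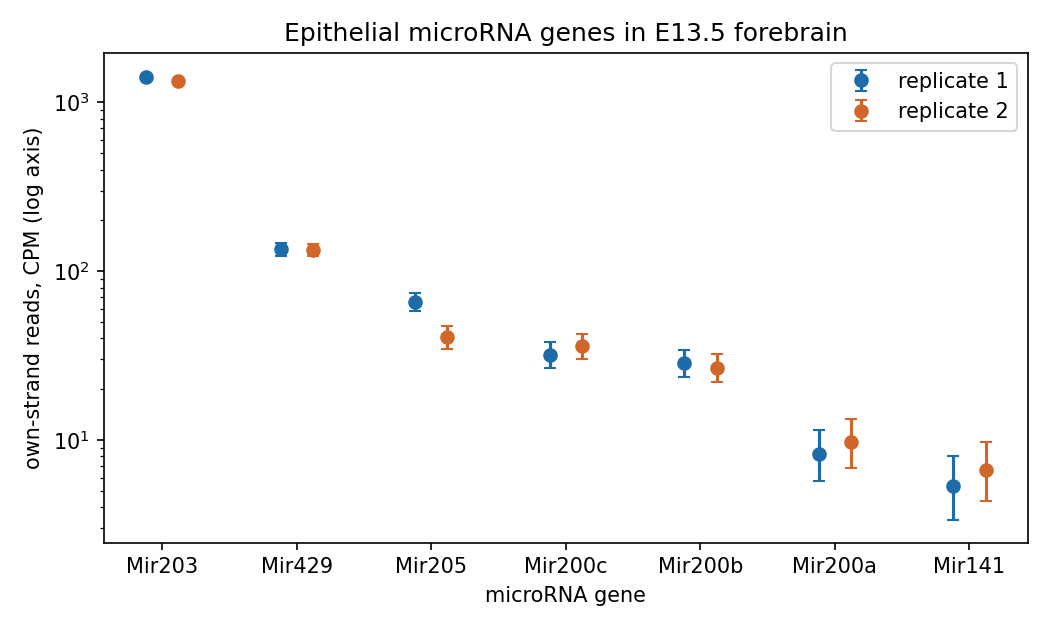
Own-strand reads of the 7 genes in CPM on a log axis, ordered by mean, with blue points for replicate 1 and orange points for replicate 2. Bars are exact 95% binomial intervals for counting error. Mir203 stands at 1409 and 1343 CPM and Mir141 at 5.34 and 6.65 CPM, and Mir205 is the member whose intervals do not overlap between the libraries.

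Together the 7 genes took up 0.168% of gene counts in replicate 1 (exact 95% interval 0.164 to 0.172) and 0.160% in replicate 2 (0.156 to 0.164). With 1 more digit these intervals did not overlap, as replicate 1 began at 0.1645 and replicate 2 ended at 0.1637. They cover counting error only. Without Mir203 the other 6 held 0.0275% and 0.0254%. The 5 genes of the Mir200 family held 0.0209% and 0.0213%, a mean of 0.0211% ± 0.000283 (SD, n = 2), and their intervals overlapped. For scale, the choroid plexus and multiciliated list, which stands for the epithelium inside the brain ventricles, held 0.98% and 0.70%. A list of 10 further microRNAs of epithelia, glands and sensory epithelia held 0.0907% and 0.0620%.

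Genes of 1 cluster differed in reads, and in both clusters the gene with the AACACUG seed was the lower one. In the chromosome 4 cluster Mir200b stood above Mir200a by 3.47-fold in replicate 1 (exact interval 2.35 to 5.24) and 2.76-fold in replicate 2 (1.89 to 4.12). Mir429, the last hairpin, stood above Mir200a by 16.3-fold (11.5 to 23.8) and 13.8-fold (9.89 to 19.7). It stood above Mir200b, with the same seed, by 4.70-fold (3.85 to 5.79) and 4.98-fold (4.03 to 6.20). In the chromosome 6 cluster Mir200c stood above Mir141 by 6-fold (3.80 to 9.90) and 5.42-fold (3.55 to 8.59). All 8 of these intervals lay above 1. Reads did not follow the order of the hairpins along the chromosome 4 cluster, since the middle gene was the lowest and the last the highest.

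**Figure D2:**
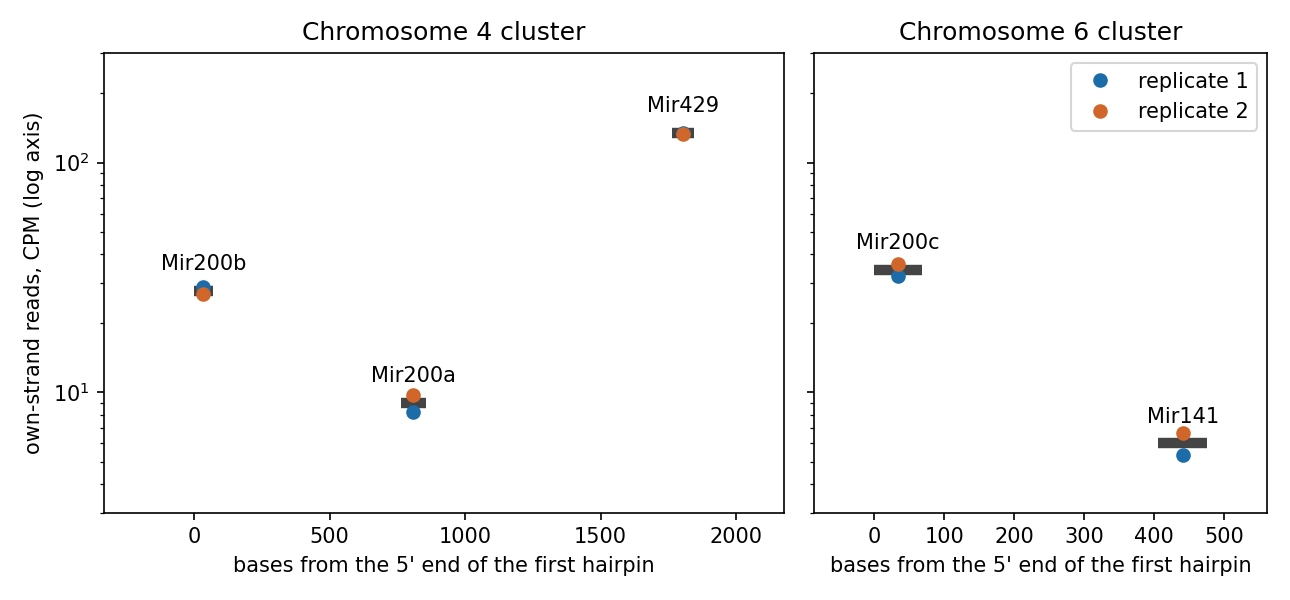
Own-strand reads in CPM on a log axis against the distance in bases from the 5′ end of the leading hairpin, for the chromosome 4 cluster (left) and the chromosome 6 cluster (right). Black bars span each hairpin at its mean level, and blue and orange points are replicates 1 and 2. Mir429, the last hairpin on chromosome 4, stands at 135 and 134 CPM, and Mir200a, between its neighbours, at 8.26 and 9.72 CPM.

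Summed by seed, the AAUACUG genes Mir200b, Mir200c and Mir429 had 805 and 769 counts, or 195 and 197 CPM. The AACACUG genes Mir200a and Mir141 had 56 and 64 counts, or 13.6 and 16.4 CPM. The AAUACUG group thus held 14.4-fold more reads in replicate 1 (exact interval 11.0 to 19.2) and 12.0-fold more in replicate 2 (9.30 to 15.8). By locus, the chromosome 4 cluster held 4.59-fold (3.85 to 5.50) and 3.99-fold (3.36 to 4.75) the reads of the chromosome 6 cluster. The chromosome 4 cluster varied little, at 172 and 170 CPM, while the chromosome 6 cluster had 37.4 and 42.7 CPM.

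Between the libraries, Mir205 was the 1 member of 7 that passed a two-sided exact binomial test with Benjamini-Hochberg adjustment over all 475 genes tested. That test called 38.7% of the genes tested. With so few members, most of them low in counts, 1 of 7 is not read as different from that share. The test compares the libraries and not conditions, and covers counting error only. After TMM scaling, Mir205 had a log2 ratio (replicate 2 over replicate 1 throughout) of -0.58 (95% interval -0.88 to -0.30, exact binomial adjusted p = 0.0002). Of all genes tested, 20.6% were called lower in replicate 2 and 18.1% higher. Among the 377 detected genes, 45 had a ratio at least this far from 0.

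The other 6 members had ratios of 0.02 for Mir200b, 0.04 for Mir203, 0.10 for Mir429, 0.28 for Mir200c, 0.34 for Mir200a and 0.42 for Mir141. Their exact binomial adjusted p ranged from 0.223 for Mir200c to 0.999 for Mir200b, and each interval included 0. For Mir203 the interval was narrow, at -0.01 to 0.10, and for Mir141 wide, at -0.45 to 1.32. The median of the 7 was 0.10, beside 0.03 over all genes tested. When library totals replaced TMM, all ratios moved by -0.11 and the median of the 7 was -0.01. The ratios of Mir200b, Mir429 and Mir203 then fell below 0, at -0.09, -0.01 and -0.07, and Mir203 passed (exact binomial adjusted p = 0.031). With Mir205 that made 2 members of 7, beside 41.1% of all genes tested under that scaling.

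**Figure D3:**
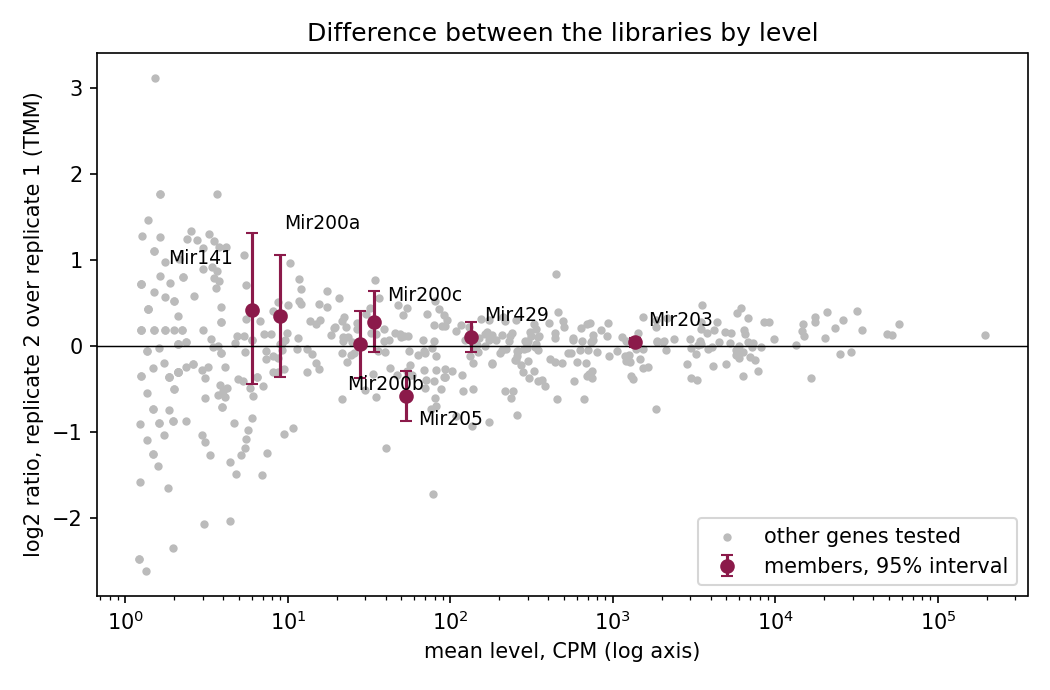
The log2 ratio of replicate 2 over replicate 1 after TMM scaling against the mean level in CPM on a log axis, for all 475 genes tested (grey) and the 7 members (dark red, with exact 95% intervals). Mir205 lies at -0.58 with its interval below 0, and the intervals of the other 6 members include 0.

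Some other epithelial markers were also called lower in replicate 2, and others were not. In the list of further epithelial, gland and sensory microRNAs, 10 of 10 were measured and none was at 0 in both libraries. Of the 9 tested, 6 had a ratio below 0 and 3 above. The calls were 4 lower and 0 higher, beside 20.6% and 18.1% of all genes tested. With library totals they were 5 lower and 0 higher, beside 141 and 54 of all 475 genes tested. The median log2 ratio was -0.26. The 4 called genes were Mir375, an endocrine and pituitary microRNA, at -0.30, and the sensory cluster Mir183, Mir182 and Mir96 at -0.81, -0.94 and -1.19, of which Mir96 was named after its value was seen. The last 3 are neighbours in 1 cluster. The 3 tested genes above 0, none of them called, were Mir192 of gut and liver at 0.23, Mir184 at 0.80 and Mir215 at 0.19. The last 2 were named after their values were seen. Mir184 had 7 and 11 counts and Mir215 had 9 and 9, so neither was detected. With equal counts, the ratio of Mir215 comes from the scaling alone. In the choroid plexus and multiciliated list 4 of 7 genes were called lower and 0 higher, with a median of -0.39. The 4 were Mir449a, Mir204, Mir34c and Mir34b. The last 2 are also on the list of the next paragraph, so their calls are counted in both lists. These calls stand beside the same 20.6% and 18.1% of all genes tested. The part of these cells in the lower value of Mir205 was not tested. In the Mir200 family 0 of 5 genes passed the test, which called 38.7% of all genes tested. All 5 ratios were above 0 with TMM, though those of Mir200b and Mir429 were not with library totals. With so few genes, and Mir200a and Mir141 low in counts, the 0 of 5 is not read as different from that share.

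Other microRNAs known from the transition between epithelial and mesenchymal states were read from a list of 15 genes, of which 14 were measured and 13 tested. Of these, 3 were called higher in replicate 2 and 4 lower, beside 18.1% and 20.6% of all genes tested; the median log2 ratio was -0.08. With library totals the split was 1 higher and 8 lower, beside 54 higher and 141 lower of all 475 genes tested. The split thus depends on the scaling, in the list as in all genes. Mir30a, which can repress Snai1, stood at 9773 ± 153 CPM (SD, n = 2), and Mir21a, which rises in many injured tissues, at 4521 ± 145 CPM. Mir9-3, a neural gene on the list, had 738 ± 22.2 CPM and Mir34c, of multiciliated cells, 663 ± 233 CPM. Mir34c was lower in replicate 2, at 498 against 828 CPM (exact binomial adjusted p = 1.55e-52).

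For likeness, the genes closest to each member in log2(CPM + 1) of both libraries were looked up. With 2 libraries this is closeness of level and little else. Mir351 (1459 and 1319 CPM) and the neural gene Mir125b-2 (1410 and 1449 CPM) were closest to Mir203. Mir345 (137 and 133 CPM) and Mir410 (131 and 133 CPM) were closest to Mir429. Mir205 had no neighbour as close, the nearest being Mir3093 at 63.6 and 46.3 CPM, 0.189 away on the log2 scale. None of these genes was another gene of epithelia on the lists.

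Mir203 also had reads on the strand opposite to its annotated gene, 86 in replicate 1 and 91 in replicate 2. They were 1.46% (exact 95% interval 1.17 to 1.80) and 1.70% (1.37 to 2.09) of its reads on both strands, and the intervals overlapped. Over the whole table, opposite-strand counts were 90809 of 4208561 on either strand in replicate 1 and 76103 of 3985056 in replicate 2. The share at Mir203 was below that of the whole table in each library, and Mir203 ranked 12 in all genes by opposite-strand count. Of 293 genes with at least 50 own-strand counts in each library, 265 had no opposite-strand read in either library. Genes read mainly on the opposite strand can fall outside this filter. Of the 293, a share over 1% in each library was found in 3 genes (1.02%), Mir203, Mir3074-1 and Mir150, the last with 1 opposite read per library. Mir150 and Mir3074-1 were named after their values were seen. Among the members, Mir200b, Mir200c, Mir429 and Mir205 had 0 opposite-strand counts in both libraries. Mir200a and Mir141 had too few own-strand counts to enter that comparison. Mir200a had 2 and 1 opposite-strand counts, shares of 5.56% and 2.56% that were above those of Mir203 but had wide intervals, 0.680 to 18.7 and 0.0649 to 13.5. Mir141 had 1 and 0, or 4.35% (0.110 to 21.9) and 0% (up to 13.2). With at most 2 opposite-strand counts in a library, the shares of these 2 genes are not resolved.

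RefSeq lists a microRNA gene on that opposite strand, Gm51289, with the synonym Mir203b (chromosome 12, 112130887 to 112130946, minus strand). GENCODE M21 has no microRNA gene there. The Mir203 hairpin is printed with the stretch whose other strand is Gm51289 in capitals, 60 of its 76 bases, followed by the Gm51289 hairpin and the mature strands of both genes with seeds in capitals, to show how alike the products of the 2 strands are.
Mir203 hairpin (chr12:112130880-112130955, plus strand): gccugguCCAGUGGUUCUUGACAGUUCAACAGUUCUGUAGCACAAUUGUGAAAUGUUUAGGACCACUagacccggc
Gm51289 hairpin (chr12:112130887-112130946, minus strand): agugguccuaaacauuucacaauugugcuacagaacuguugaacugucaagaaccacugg
miR-203-5p: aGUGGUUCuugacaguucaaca
miR-203b-5p: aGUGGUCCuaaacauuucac
miR-203b-3p: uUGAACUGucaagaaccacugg

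The seed of miR-203b-3p, UGAACUG, differs from that of miR-203-3p, UGAAAUG, by A6C, counted from 1 at the 5′ end. Over the whole strand 6 of 22 bases differ. The seeds of the 5p strands differ by U7C. Both printed mature strands of Gm51289 are exact reverse complements of stretches of the Mir203 hairpin, so a read from either would be counted as opposite-strand at Mir203. The predicted folding energy was -35.1 kcal/mol for the 76 bases of Mir203 and -15.4 kcal/mol for the 60 bases listed for Gm51289.

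Relative to 1000000 own-strand gene counts, the opposite-strand reads at Mir203 came to 20.9 and 23.3, a mean of 22.1 ± 1.69 (SD, n = 2). In each library this lay above the CPM of Mir200a and Mir141 and below that of Mir200b. Of the genes with at least 50 own-strand counts that RefSeq also lists, 14 have a hairpin on their other strand, and 3 of these (Mir203, Mir3074-1 and, named after its value was seen, Mir337) had more than 3 opposite-strand counts in each library. Of the 242 without such a hairpin, 3 did. The tables hold no separate row named for Gm51289, and which mature strand the reads came from was not analysed here.

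**Figure D4:**
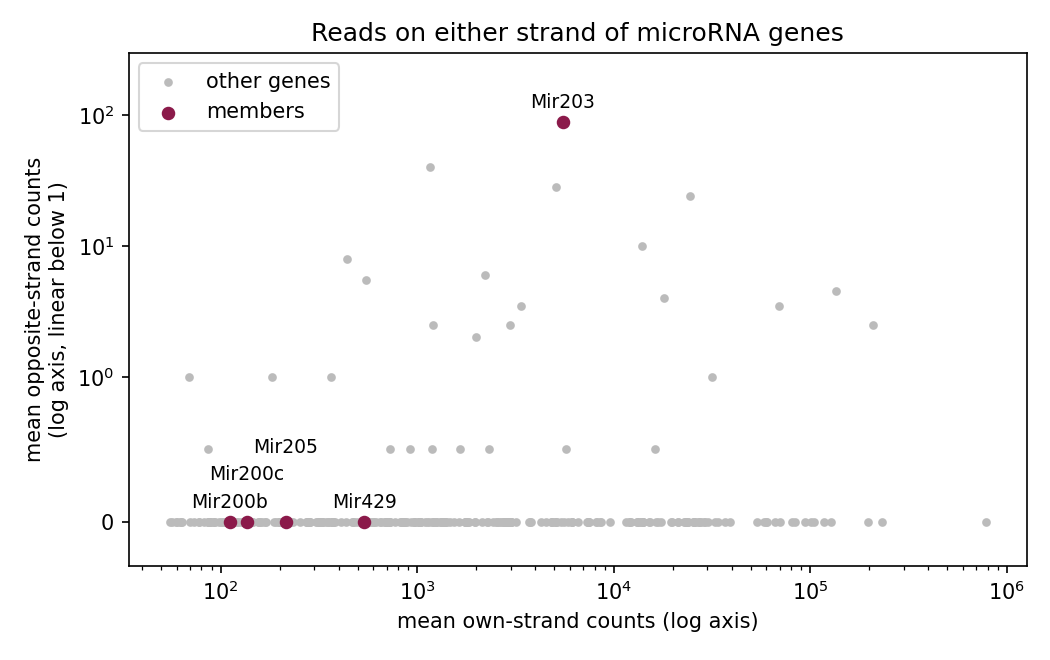
Mean opposite-strand counts (log axis, linear below 1) against mean own-strand counts (log axis) for the 293 genes with at least 50 own-strand counts in each library, members in dark red. Among the members shown, Mir203 lies highest, from 86 and 91 opposite-strand counts, and Mir200b, Mir200c, Mir205 and Mir429 lie at 0.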

How the data were processed

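MicroRNA sequencing of 2 forebrain libraries was used. The authors deposited raw read counts per gene, 1 table per library, on mm10 with GENCODE M4, per the read-me texts deposited with them. The aligner and counter: not given in the sources used here. Columns hold reads on either strand, the gene's strand and the opposite strand. Own-strand counts were used. Summary rows stayed out of library sizes. They held 16.7% and 15.0% unmapped, 40.6% and 43.9% multi-mapped, 3.99% and 3.71% unassigned and 0 ambiguous reads in replicates 1 and 2. Gene counts totalled 4117752 and 3908953, so 1 count is 0.243 and 0.256 CPM.

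Of 1973 identifiers, 1894 matched GENCODE M21, without their version numbers. CPM, shares and exact (Clopper-Pearson) 95% intervals were computed with SciPy 1.17.1. TMM factors came from edgeR 4.0.16 over detected genes (10 counts or more per library). DESeq2 1.42.0 size factors and library totals were alternatives. Ratios used a prior count of 0.5. The two-sided exact binomial test ran on genes whose counts summed to 10 or more over both libraries, called at an adjusted p under 0.05, and was tested on simulated data. With 1 group no model between conditions could be fitted. Hairpins were folded with RNAfold 2.7.2. Because PCR copies are not separate molecules, intervals cover counting error only.

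All 7 members are named, with the 2 nearest genes by level for some, and up to 4 genes of a list. Members and lists were chosen with earlier results of these data known.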

Additional observations from a re-analysis of the deposited data

Results flagged for a closer look

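Opposite-strand reads at Mir203 lie outside the own-strand measurement, and there are no control samples. They numbered 86 in replicate 1 and 91 in replicate 2, above the 3 counts that a count of 0 allows. That bound holds for a gene without reads and is no background for opposite-strand reads. Over the whole table these numbered 90809 in replicate 1 and 76103 in replicate 2, a larger share of both strands than at Mir203. That pooled share can include genes read mainly on the opposite strand. Of 293 genes with at least 50 own-strand counts in each library, 265 had no opposite-strand read in either. A share over 1% in each library was found in 3 of the 293, Mir203 among them.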

How the results depend on the processing

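Relative to all reads, the summed share of the 7 genes was 0.0625%. The chromosome 4 cluster then held 0.00651%, the chromosome 6 cluster 0.00152%, Mir203 0.0524% and Mir205 0.00204%. The seed groups held 0.00746% (AAUACUG) and 0.00057% (AACACUG). These drops follow from the larger denominator. With counts on either strand, the chromosome 4 cluster moved to 0.0168% and the AAUACUG group to 0.0192%, by more than their small SD. With library totals 2 members of 7 were called in place of 1, Mir203 and Mir205, beside 41.1% of all genes tested. The log2 ratio became -0.0926 for Mir200b, -0.0105 for Mir429 and -0.0694 for Mir203. With DESeq2 size factors that of Mir200b was -0.00963. Mir205 was called under every setting tried (TMM, library totals, DESeq2 size factors, no filter beyond 1 count, either strand), with exact binomial adjusted p from 5.46e-06 to 0.000304. The same settings called from 24% to 41.1% of all genes tested. Leaving out either library gave shares, levels and ratios within 1 SD of the mean, as 2 values must, and left no ratio between libraries. The opposite-strand share at Mir203 (leaving out a library was chosen after seeing the data) was 1.46% to 1.70%. Mir141 and Mir200a, with at most 38 counts in a library, were limited most by depth.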
